A study of Mus musculus with 2 samples.

Results

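The complement genes described here are 9 genes of the 32245 gene symbols counted in this series: C1qa, C1qb, C1qc, C3, C4b, Cfb, Cfp, C3ar1 and C5ar1. They were chosen by symbol, and each symbol matched 1 entry of the deposited gene list. The data are 2 single-cell RNA libraries of mouse immune cells from subcutaneous allograft tumours called KP, taken 14 days after inoculation. One library, named Tdg_WT here, has the genotype label WT, and the other, Tdg_KO, the label Tdg KO. The targeted gene codes for thymine DNA glycosylase, which removes mispaired thymine from DNA. The labels do not say whether tumour cells or host cells carry the genotype, and they give no age, strain or number of mice. In both groups the immune cells were enriched over Percoll and sorted by flow cytometry as live and positive for CD45, which leukocytes carry on their surface. With 1 library per group there is no replicate spread, no test and no p-value. Every interval is a 95% interval that covers counting error only.

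Complement is a cascade of proteins that marks targets for uptake and calls in other immune cells. C1q, built from the chains encoded by C1qa, C1qb and C1qc, starts the classical pathway when it binds antibody or damaged cells. C4b provides part of the classical convertase, C3 is the protein on which all pathways meet, factor B (Cfb) forms the alternative convertase, and properdin (Cfp) stabilises it. The receptors C3ar1 and C5ar1 respond to the small fragments C3a and C5a. In tumours C1q is known as a product of macrophages, and properdin of myeloid cells, while liver makes most of the complement of plasma.

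All 9 genes lie on the minus strand (GENCODE vM21 gene bounds, GRCm38, the assembly known as mm10) and are protein coding. C1qb (chr4:136880129-136886187), C1qc (chr4:136889804-136893065) and C1qa (chr4:136895917-136898803) are neighbours. C4b (chr17:34728380-34743882) and Cfb (chr17:34856374-34862518) lie on the same chromosome as C3 (chr17:57203970-57228136). Cfp is at chrX:20925454-20931555, C3ar1 at chr6:122847138-122856161 and C5ar1 at chr7:16246743-16259540. C4b has a near-identical copy, C4a, and Cfb overlaps the gene model Gm20547 on the same strand, so their counts are uncertain where reads fit both.

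The sequences before the start sites of C1qb and C3 are shown because these genes separate the macrophage pattern from the neutrophil and monocyte pattern described below. They are the 250 bases before the start in RefSeq's GRCm38.p6 annotation, read 5′ to 3′ on the minus strand, and capitals mark the motif matches.
C1qb, chr4:136886201-136886450: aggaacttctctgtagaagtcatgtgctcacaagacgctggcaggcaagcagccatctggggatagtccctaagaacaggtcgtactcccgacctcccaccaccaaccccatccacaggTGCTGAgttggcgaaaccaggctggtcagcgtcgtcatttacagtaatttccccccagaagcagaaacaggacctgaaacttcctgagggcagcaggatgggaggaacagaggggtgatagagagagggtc
C3, chr17:57228137-57228386: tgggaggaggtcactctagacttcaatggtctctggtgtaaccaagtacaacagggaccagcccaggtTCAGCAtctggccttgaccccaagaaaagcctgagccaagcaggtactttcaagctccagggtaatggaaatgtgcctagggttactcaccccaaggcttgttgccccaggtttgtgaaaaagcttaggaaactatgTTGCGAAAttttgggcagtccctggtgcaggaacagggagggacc
The capitals are the Maf core TGCTGA in C1qb and, on the other strand, in C3, and the C/EBP letters TTGCGNAA in C3. C1qc held the PU.1 letters GAGGAAG on the other strand, 194 bases before its start. Both strands of a window from 250 bases before to 50 bases after the start were searched for 6 of the 9 genes. Of 27025 such windows, 19.1% held the Maf core, 13.5% the PU.1 letters and 0.807% the C/EBP letters. C3ar1 also held the Maf core and the AP-1 letters TGACTCA, found in 5.17% of windows, and C5ar1 held the Maf core. Cfp held none of these motifs, and no window of the 6 genes held the interferon response motif (GAAA, any pair of bases, GAAA), found in 3.49% of all windows. No match overlapped another. A match is a run of letters, not a measured binding site.

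Depth was 39819010 UMIs (molecular identifiers that each count 1 captured RNA molecule) over 5604 barcodes in Tdg_WT, and 52586319 over 5896 in Tdg_KO. The cells were clustered with the 9 genes left out of the clustering, and 26 of 36 clusters were named by marker genes as 17 cell classes. In Tdg_WT and Tdg_KO these include 245 and 294 macrophage-like cells, neutrophil-like cells at 684 and 238, monocyte-like cells at 136 and 78, and type 2 dendritic-like (cDC2-like) cells at 114 and 107. The libraries share 8 barcode sequences. T cell and phagocyte markers met in 604 barcodes of Tdg_WT and 1049 (18.4%) of Tdg_KO. Clusters made mostly of them, 380 and 721 cells, are called mixed and were kept out of the classes. Tdg itself was at 25.1 CPM (UMIs of a gene per 1000000 UMIs of the class or library) in Tdg_WT and 26.5 CPM in Tdg_KO. The 3′ ends counted here do not check a deletion elsewhere in a gene, and directions below are those between libraries so labelled.

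Of the 9 genes, 8 had their highest levels in myeloid classes, and not all in the same ones. The C1q chains and Cfb were highest in macrophage-like cells, C3 in neutrophil-like and monocyte-like cells, Cfp in macrophage-like and cDC2-like cells, and C5ar1 in neutrophil-like and basophil-like cells. C4b had few UMIs in every class and was highest in the epithelial or tumour cluster. The dot plot by class and library shows this order. B-like, NK-like and CD8 T-like cells, lymphocytes that should lack these transcripts, set the level that free RNA and mixed barcodes can give. In those cells together a C1q UMI was seen in 5.37% (Tdg_WT, 1452 cells) and 9.09% (Tdg_KO, 1573 cells), at a median of 5568 and 6376 UMIs per cell. The other 6 genes were seen there in at most 2.03% of cells.

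**Figure D1:**
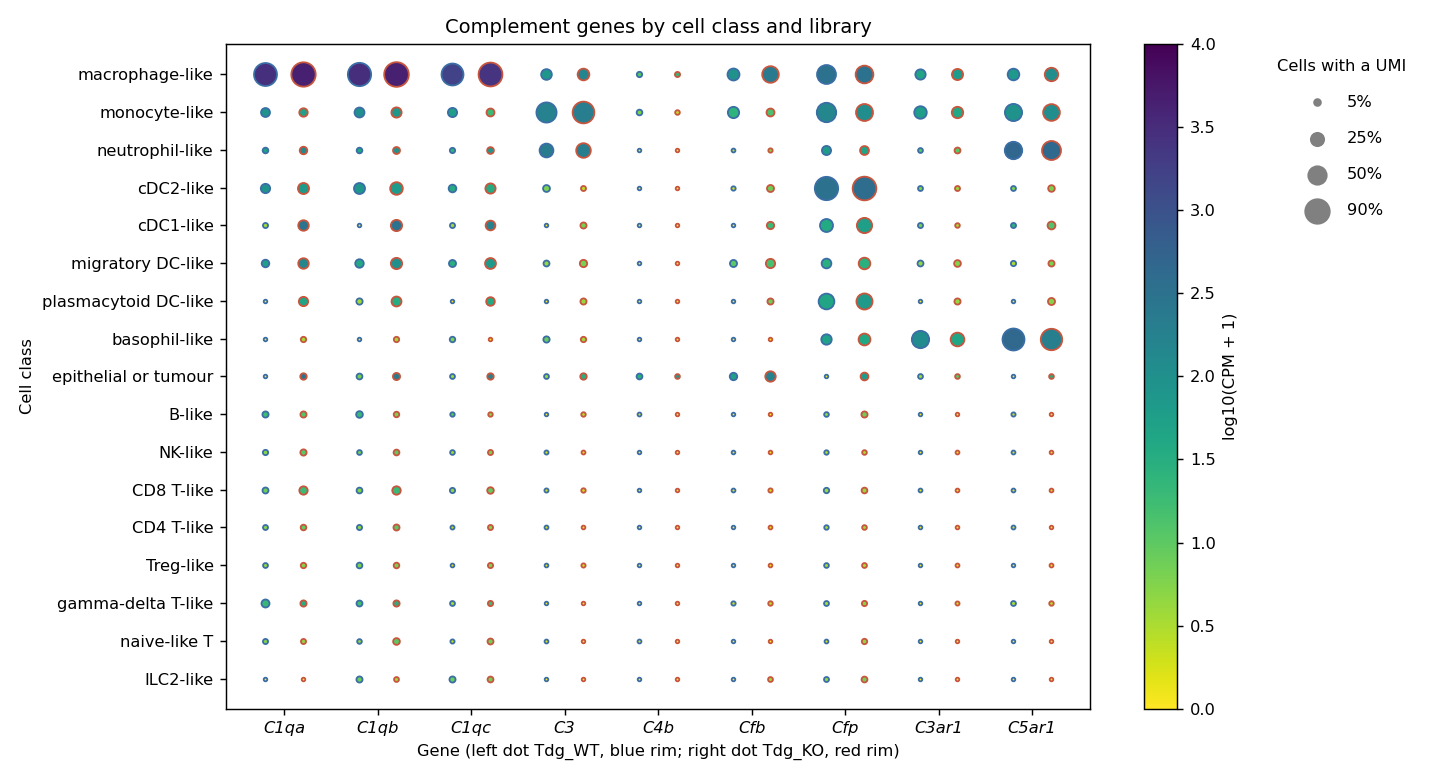
Levels of the 9 complement genes in 17 cell classes (rows) and both libraries (left dot Tdg_WT, right dot Tdg_KO). Colour is log10(CPM + 1) and dot size the share of cells with at least 1 UMI; the C1q chains stand out in macrophage-like cells, Cfp in cDC2-like and macrophage-like cells, and C5ar1 in neutrophil-like and basophil-like cells.

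The C1q chains were measured at high level in macrophage-like cells of both libraries and were higher in Tdg_KO. C1qa was at 2812 CPM in Tdg_WT and 4480 CPM in Tdg_KO, a ratio of 1.59 (1.52 to 1.67). C1qb was at 2991 and 4403 CPM, a ratio of 1.47 (1.40 to 1.54). C1qc was at 1631 and 2547 CPM, a ratio of 1.56 (1.47 to 1.66). The intervals of the levels in the libraries do not overlap for any chain, and the 3 ratios lie close together. The summed C1q level was 7434 CPM (7262 to 7608) in Tdg_WT and 11430 CPM (11225 to 11639) in Tdg_KO, a ratio of 1.54. A C1q UMI was found in 85.3% and 93.5% of the cells, at median depths of 3540 and 2868 UMIs, far above the lymphocyte shares although these cells were shallower.

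Of the 9 genes, 8 had at least 50 UMIs over both libraries in macrophage-like cells. Of these, 5 were at least 1.5-fold higher in Tdg_KO (C1qa, C1qc, C3, Cfb and C5ar1) and 0 were as much lower. Of all 3286 genes with that many UMIs, 14.8% were as much higher and 5.9% as much lower. The median log2 ratio was 0.66 over the 8 genes and 0.08 over all genes. Part of this count rests on the scaling. With edgeR's TMM factors, which shift all log2 ratios of this class by -0.15, 9.04% of all genes were at least 1.5-fold higher and 9.65% lower. Only C3 and Cfb of the 8 genes then passed 1.5-fold, and the C1qa ratio was 1.43.

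Macrophage-like cells formed a pair of clusters that differ in C1q. The first was led by Ccl8, a chemokine, Apoe, a lipid carrier, and Ms4a7. The second was led by Spp1, which encodes osteopontin, Arg1, an arginine-degrading enzyme, and the metallothionein Mt2. The first held 131 of 245 macrophage-like cells in Tdg_WT (53.5%, 47.0 to 59.8) and 237 of 294 in Tdg_KO (80.6%, 75.6 to 85.0). Summed C1q in the first cluster was 11100.4 CPM in Tdg_WT and 13532 CPM in Tdg_KO, a ratio of 1.22 (1.18 to 1.26). In the second it was 3596 and 3452 CPM, a ratio of 0.960 (0.879 to 1.05). Within either cluster the ratio was thus smaller than over the whole class, and with both clusters weighted equally it was 1.16. In the first cluster Apoe had a ratio of 1.34 and Spp1 one of 0.353, so its cells differed between libraries in leading genes as well. The macrophage marker list, which holds none of the 9 genes, had 6 of 9 genes higher in Tdg_KO. It summed to 15394 and 23335 CPM, a ratio of 1.52. Most of that sum was Apoe, with 8773 and 19627 UMIs in the first cluster and 2732 and 1585 in the second. The summed ratio is therefore mainly that of Apoe and not of the list as a whole. The neutrophil marker list summed to 1899 and 564 CPM in macrophage-like cells, with 3 of 9 genes higher and none at 0, and the part of these lists in the C1q ratio was not tested.

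**Figure D2:**
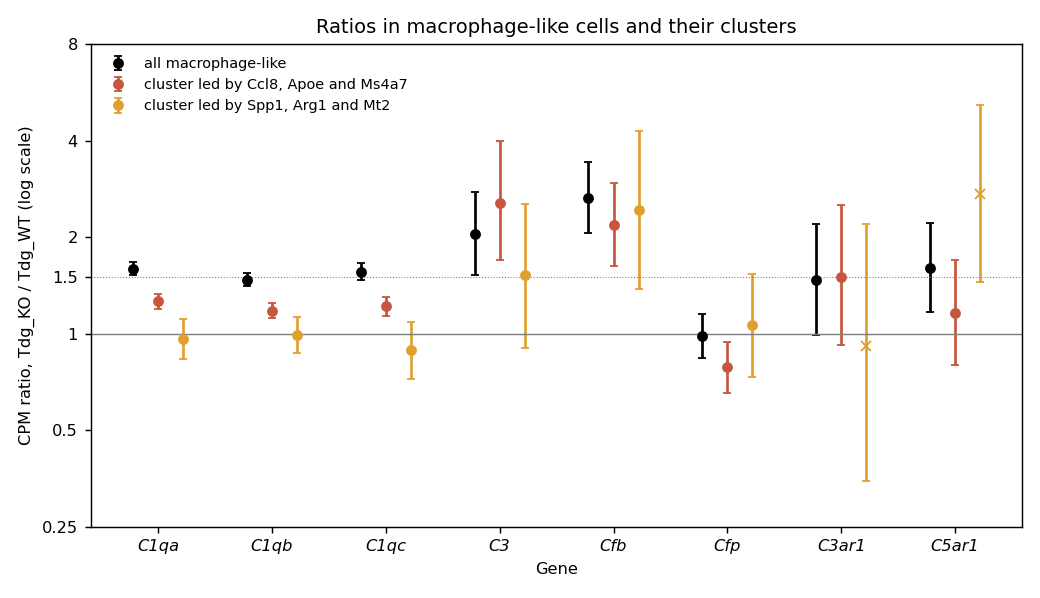
CPM ratio of Tdg_KO to Tdg_WT (log axis) with 95% counting intervals for 8 genes in all macrophage-like cells and in each of their clusters; crosses mark ratios from fewer than 50 UMIs. The dotted line is 1.5-fold. For the C1q chains the ratios within each cluster lie below those of the class, and for Cfb all 3 ratios lie above 2.

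Single cells showed the same picture. The summed C1q level per macrophage-like cell had a median of 6653 CPM in Tdg_WT and 11917 CPM in Tdg_KO. The middle of the cells, from the lower to the upper quartile, ran from 1174 to 12718 CPM in Tdg_WT and from 5224 to 17756 CPM in Tdg_KO, so the libraries overlap widely. Cells with no C1q UMI were 36 of 245 (14.7%) and 19 of 294 (6.46%). In the first cluster the medians were 11786 and 14257 CPM, and in the second 2303 and 1384 CPM. Both libraries thus hold cells high and low in C1q, and the lower median of Tdg_WT goes with its larger share of the second cluster.

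**Figure D3:**
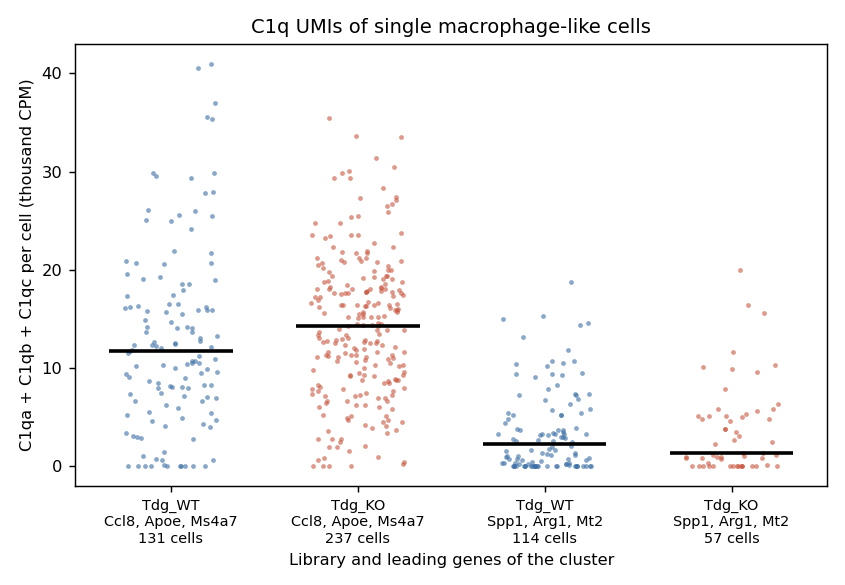
Summed C1qa, C1qb and C1qc per macrophage-like cell (in 1000 CPM), by cluster and library. Each dot is 1 cell and the bar is the median; cells of the cluster led by Ccl8, Apoe and Ms4a7 sit higher, with medians of 11786 and 14257 CPM against 2303 and 1384 CPM in the other cluster.

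The 3 chains, which assemble into 1 protein, were found together. In Tdg_WT all 3 had a UMI in 169 of 245 cells (69.0%), and in Tdg_KO in 244 of 294 (83.0%). After each cell was thinned to 1000 UMIs, which left out 12 and 14 shallower cells, the shares were 48.1% and 72.5%. Over cells, the pairwise correlations of the chains ran from 0.77 to 0.89 unthinned and from 0.67 to 0.78 thinned, as a description of cells of 1 library each, which share depth and cluster. C1qa, C1qb and C1qc took 37.8%, 40.2% and 21.9% of the C1q UMIs of macrophage-like cells in Tdg_WT and 39.2%, 38.5% and 22.3% in Tdg_KO. Other classes differed in how close they came. In NK-like cells of Tdg_KO the shares were 41.0%, 36.4% and 22.5% of 173 UMIs, with intervals that hold the macrophage-like shares of that library. In Tdg_KO the C1qb share was 31.1% (25.2 to 37.4) in neutrophil-like and 53.2% (43.4 to 62.8) in monocyte-like cells. The C1qa share was 45.8% (40.7 to 50.9) in migratory dendritic-like cells. These intervals do not hold the macrophage-like shares, but they take each UMI as an independent draw. The monocyte-like share rests on 109 UMIs, and 66 of the 78 cells held none. No difference in the mix of chains is read from these intervals.

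Outside macrophage-like cells C1q was lower and seen in a minority of cells. In neutrophil-like cells it summed to 118 CPM in Tdg_WT and 294 CPM in Tdg_KO, a ratio of 2.49 (2.05 to 3.03). It was seen in 5.26% and 9.24% of these cells, at median depths of 1802 and 2209 UMIs. Thinned to 1000 UMIs, which left out 188 and 73 shallower cells, the shares were 4.03% and 7.27%, against 0.949% and 1.81% of NK-like cells. In these classes both share and level lay above those of NK-like cells. A marker gate named cells one by one from their own markers and left out those with markers of another lineage. There, unthinned, C1q was seen in 2.31% and 4.03% of neutrophils and in 2.68% and 6.36% of NK cells. Its level was 11.9 and 27.7 CPM in neutrophils and 5.97 and 13.4 CPM in NK cells. Unthinned in the main clustering, 95.9% and 92.8% of NK-like cells held no C1q UMI, at median depths of 5489 and 5984 UMIs. The neutrophil-like shares of 5.26% and 9.24% lay above what remains, although those cells were shallower. The order of the unthinned shares thus depended on how cells were named, while the level was higher in neutrophils under both namings. Of the 6 genes measured in the neutrophil-like class, 3 were at least 1.5-fold higher (the C1q chains, against 19.2% of all 4570 genes) and 0 as much lower (against 6.94%). With TMM scaling, which shifts this class by -0.28, the same 3 were higher against 9.34% of all genes, and Cfp was lower against 17.5%. T cell markers in neutrophil-like cells were higher for 6 of 6 genes and summed to 624 and 1227 CPM, none at 0, while the macrophage list, 5 of 9 higher and Pf4 at 0 in Tdg_KO, summed to 738 and 763 CPM. Without the 48 and 26 barcodes that carried markers of another lineage, C1q was at 40.8 and 86.3 CPM.

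Monocyte-like cells, the blood-derived precursors of many tumour macrophages, went the other way in the main clustering. C1q summed to 243 CPM in Tdg_WT and 142 CPM in Tdg_KO, a ratio of 0.584 (0.466 to 0.727), and was seen in 16.9% and 15.4% of cells. In Tdg_KO 43 UMIs of 109 came from 1 barcode. Without the top barcode of each library the ratio was 0.431, and at a Leiden resolution of 0.5, which redraws the class, it was 0.973. Without barcodes of another lineage the levels were 267 and 59.7 CPM. Of the 7 genes measured in monocyte-like cells, 0 were at least 1.5-fold higher (7.68% of all 4469 genes) and 2, C1qa and C1qc, as much lower (7.88%).

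In cDC2-like cells, which present antigen to CD4 T cells, C1q summed to 209 and 167 CPM, a ratio of 0.802 (0.668 to 0.961). The ratio was 1.10 when cells were thinned to 1000 UMIs and 1.998 at a Leiden resolution of 0.5. In the marker gate C1q was at 690 and 699 CPM in cDC2 cells, so no direction held. In the main clustering 235 of the 282 C1q UMIs of Tdg_WT lay in a small cluster led by Tcea3 and Epcam, and in Tdg_KO 81 of 214. That cluster was at 1810 CPM over 20 cells and 448 CPM over 25. In Tdg_KO another 113 UMIs lay in the 19 cells of the cluster led by Dcstamp and Il1r2, and the main cluster, led by Cd209a, was at 12.5 and 25.4 CPM. Of the 4 genes measured in cDC2-like cells, 0 were at least 1.5-fold higher (8.05% of 4723 genes) or as much lower (3.56%). In type 1 dendritic-like (cDC1-like) cells C1q was at 5.55 CPM (0.672 to 20.04, 2 UMIs) in Tdg_WT and 769 CPM (711 to 830) in Tdg_KO. Only 15 of the 80 Tdg_KO cells held it. The T cell list there summed to 125 and 1292 CPM, with 6 of 6 genes higher and none at 0. The macrophage list summed to 255 and 1560 CPM, with 6 of 9 higher and Csf1r, Mrc1 and Ms4a7 among those at 0 in Tdg_WT. Apoe, with 19 and 1133 UMIs, made up most of that sum in Tdg_KO. Without barcodes of another lineage the C1q levels were 5.95 and 83.4 CPM. In the marker gate C1q was at 190 CPM over 39 cDC1 cells of Tdg_WT and 39.3 CPM over 55 of Tdg_KO. It was seen there in 7.69% and 3.64% of cells, so no direction held. In migratory dendritic-like cells C1q was at 116 CPM in Tdg_WT and 308 CPM in Tdg_KO. Without barcodes of another lineage, 28.4% and 42.5% of the class, it was at 192 and 319 CPM. Thinned to 1000 UMIs, 6.82% and 7.5% of these cells held C1q. In the marker gate it was at 236 and 1058 CPM, in 10.6% of 47 and 36.1% of 36 cells. The epithelial or tumour cluster was at 9.02 and 698 CPM, and at 8.22 and 13.6 CPM without barcodes of another lineage.

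Lymphocytes carried traces. C1q was at 12.9 and 24.3 CPM in NK-like, 15.1 and 44.7 CPM in CD8 T-like and 44.4 and 20.7 CPM in B-like cells. Without barcodes that carried T cell and phagocyte markers the values were 8.97 and 25.02, 8.22 and 20.1, and 13.5 and 20.5 CPM. Over each whole library, macrophage-like cells held 50.6% of C1q UMIs in Tdg_WT and 36.3% in Tdg_KO, and the mixed clusters 31.5% and 47.3%. The largest pool of C1q in Tdg_KO was therefore in the mixed clusters, which the rule for T cell and phagocyte markers kept out of the classes. Of its 15343 UMIs, 9911 lay in a mixed cluster of 205 Tdg_KO cells led by Gzma, Ccl8 and Apoe. Summed C1q had a ratio of 1.09 (1.05 to 1.14) there. It was 1.46, 2.16 and 7.86 in the mixed clusters led by Il1a, Il2 and Cd209a.

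C3, the central component, had its highest level in neutrophil-like and monocyte-like cells. In neutrophil-like cells it was at 226 CPM (203 to 250) in Tdg_WT and 205 CPM (175 to 239) in Tdg_KO, a ratio of 0.910 (0.753 to 1.10). The intervals of the levels overlap. It was 1.24 without barcodes of another lineage and 0.748 with TMM scaling, so no direction held. Most C3 UMIs of the class lay in 1 neutrophil-like cluster, that led by G0s2, Il1f9 and Slpi, where 43.8% and 47.7% of cells held a UMI. The cluster led by S100a9 and S100a8, at a median of 918.5 and 826 UMIs per cell, held it in 5.10% of 294 cells in Tdg_WT and in 0 of 85 in Tdg_KO. In monocyte-like cells C3 was at 176 and 208 CPM, a ratio of 1.19 (0.965 to 1.45), and was detected in 60.3% and 70.5% of cells.

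In macrophage-like cells C3 was lower than in those classes and differed between the libraries. It was at 72.2 CPM (56.2 to 91.4) in Tdg_WT and 148 CPM (125 to 173) in Tdg_KO, a ratio of 2.04 (1.53 to 2.76). The shares of cells with a UMI were close, 15.5% and 19.0%. A single barcode held 26.3% of the Tdg_KO UMIs, and without the top barcode of each library the ratio was 1.62. In the marker gate C3 was at 65.9 CPM over 161 macrophages of Tdg_WT and 93.8 CPM over 245 of Tdg_KO, a difference below 1.5-fold. In the cluster rich in C1q it was at 59.3 CPM in Tdg_WT and 152 CPM in Tdg_KO, and in the other at 85.7 and 130 CPM, so the order of the clusters differed between the libraries. In B-like cells it was seen in 0 of 287 cells of Tdg_WT, which allows up to 1.75 CPM (3 UMIs).

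C4b, of the classical pathway, had 41 UMIs in the whole Tdg_WT library and 74 in Tdg_KO. In macrophage-like cells it was at 10.5 CPM (5.02 to 19.2) and 21.4 CPM (13.4 to 32.3), from 10 and 22 UMIs in 6 cells each. In the cluster of epithelial or tumour cells it was at 27.1 and 64.1 CPM, and all 38 Tdg_KO UMIs came from 1 barcode. In neutrophil-like cells it had 0 UMIs in both libraries, which allows up to 1.84 and 3.76 CPM.

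Cfb showed the widest difference of the 8 genes measured in macrophage-like cells. It was at 88.9 CPM (71.0 to 110) in Tdg_WT and 236 CPM (207 to 268) in Tdg_KO, a ratio of 2.65 (2.06 to 3.44). The share of cells with a UMI went from 49 of 245 to 118 of 294 (40.1%), and thinned from 7.73% to 19.3%. The level intervals do not overlap, and the barcode with most UMIs held 5.88% and 4.94% of them. Unlike C1q, Cfb was higher in both clusters. In the cluster led by Ccl8 it was at 121 and 262 CPM, a ratio of 2.17 (1.62 to 2.95), and in that led by Spp1 at 55.7 and 135 CPM, a ratio of 2.43 (1.38 to 4.29). With TMM scaling the class ratio was 2.39. In monocyte-like cells Cfb was at 24.7 and 13.01 CPM, from 34 and 10 UMIs. In the epithelial or tumour cluster it was at 54.1 and 169 CPM, where 58.0% of the Tdg_KO UMIs were in 1 barcode. In neutrophil-like cells it had 2 and 3 UMIs.

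Cfp, which encodes properdin, was highest in cDC2-like and macrophage-like cells, with overlapping levels in Tdg_WT and a higher level in cDC2-like cells in Tdg_KO. In cDC2-like cells it was at 315 CPM (286 to 346) in Tdg_WT and 385 CPM (352 to 421) in Tdg_KO, a ratio of 1.22 (1.07 to 1.40), and 81.6% and 84.1% of cells held a UMI. In macrophage-like cells it was at 321 and 316 CPM, a ratio of 0.982 (0.838 to 1.15). The interval holds 1, while the C1q chains and Cfb in the same cells had intervals above 1. In the macrophage cluster led by Ccl8 Cfp was lower in Tdg_KO, at 436 and 342 CPM (0.785, 0.655 to 0.943), and in that led by Spp1 it was at 201 and 214 CPM. Monocyte-like cells had 139 and 107 CPM, a ratio of 0.766 (0.584 to 0.997). Neutrophil-like cells had 63.9 and 46.3 CPM, and plasmacytoid dendritic-like cells, a source of type I interferon, 43.7 and 69.5 CPM from 25 and 53 cells. The plasmacytoid ratio of 1.59 (0.905 to 2.95) was 0.870 without T cell barcodes, and T cell and phagocyte markers met in 32.0% and 35.8% of these barcodes. B-like cells had 3.51 and 6.60 CPM.

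C5ar1, the receptor for C5a that draws neutrophils to inflamed tissue, was highest in neutrophil-like cells. It was at 501 CPM (467 to 537) in Tdg_WT and 443 CPM (398 to 492) in Tdg_KO, a ratio of 0.885 (0.779 to 1.00), and was detected in 44.6% and 53.4% of cells. The level intervals overlap, and the ratio was 1.08 without barcodes of another lineage and 0.727 with TMM scaling, so no direction held. As for C3, the cluster led by G0s2 carried most of it, at 583 and 474 CPM with 66.9% and 76.5% of cells, against 168 and 165 CPM in the shallow cluster led by S100a9. Monocyte-like cells were at 92.8 and 108 CPM. Macrophage-like cells were at 68.0 CPM (52.5 to 86.7) and 109 CPM (89.6 to 131), a ratio of 1.60 (1.17 to 2.21). This ratio was 0.832 when each cell was thinned to 1000 UMIs, where 19 cells of each library held a UMI, and no direction is read from it. In the cluster led by Ccl8 it was 1.16 (0.800 to 1.70).

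C3ar1, the receptor for C3a, had fewer UMIs and was low in neutrophil-like cells. Macrophage-like cells were at 45.0 CPM (32.6 to 60.6) and 66.0 CPM (51.3 to 83.7), a ratio of 1.47 (0.987 to 2.203), and monocyte-like cells at 57.3 and 40.3 CPM (0.704, 0.449 to 1.08). Both intervals hold 1. Neutrophil-like cells were at 9.83 and 10.0 CPM, from 16 and 8 UMIs, where C5ar1 was at its highest.

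Basophil-like cells, granulocytes that release histamine and interleukin 4, carried both receptors. C5ar1 was at 456 CPM (392 to 527) over 75 cells in Tdg_WT and 195 CPM (153 to 246) over 41 cells in Tdg_KO, and 72.0% and 68.3% of the cells held a UMI. C3ar1 was at 121 CPM (89.1 to 160) and 43.4 CPM (24.8 to 70.5), in 44.0% and 26.8% of cells. The share of cells with C5ar1 was close in the libraries although the CPM differed. The T cell marker list summed to 567 and 2007 CPM in these cells, with 6 of 6 genes higher and none at 0. Without barcodes of another lineage, C5ar1 was at 485 and 395 CPM over 54 and 28 cells, and C3ar1 at 118 and 81.9 CPM, with overlapping intervals. Cfp was at 47.8 and 40.7 CPM in basophil-like cells, from 19 and 15 UMIs. C1q had 2 UMIs in each library, C3 had 3 and 1, and Cfb and C4b had 0.

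**Figure D4:**
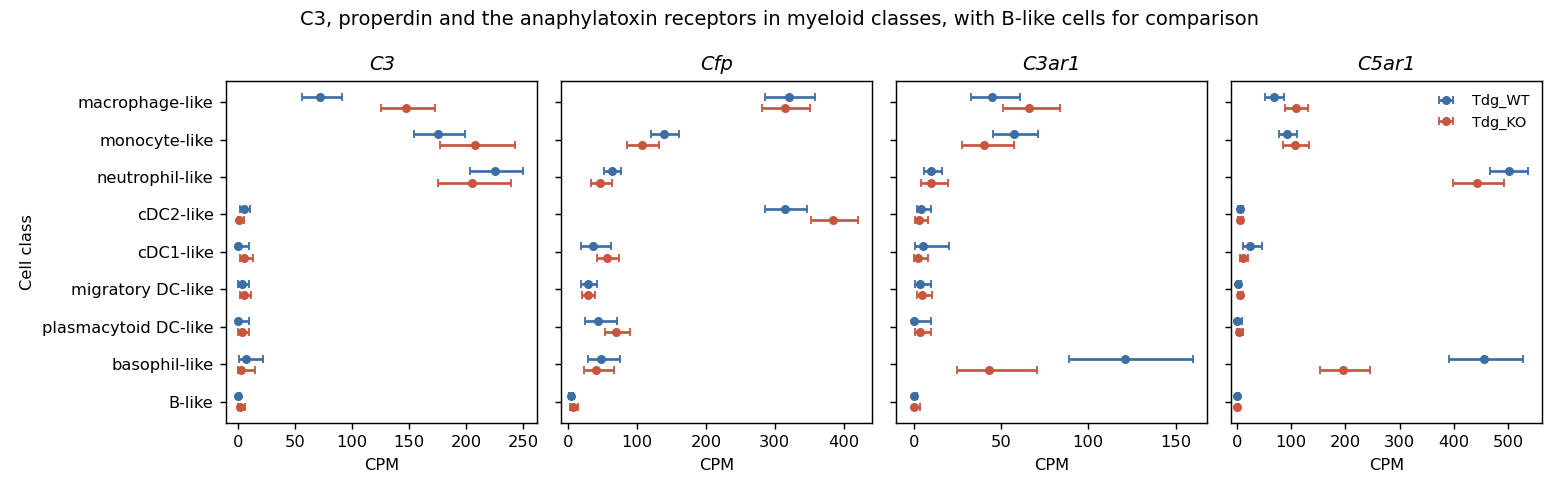
CPM of C3, Cfp, C3ar1 and C5ar1 in 8 myeloid classes and B-like cells, with exact 95% counting intervals, for Tdg_WT (blue) and Tdg_KO (red). C5ar1 is highest in neutrophil-like and then basophil-like cells in both libraries, while the highest class of C3, Cfp and C3ar1 differs between them. The intervals of their leading classes overlap in Tdg_KO for C3 and C3ar1 and in Tdg_WT for Cfp. The basophil-like receptor levels stand apart between libraries, at 456 and 195 CPM for C5ar1.

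Of 43 other complement genes listed, 14 had at least 50 UMIs over both libraries and 10 had none. In macrophage-like cells 5 were measured (14.8% of all genes higher, 5.9% lower). Of these Itgax, the alpha chain of complement receptor 4, was at 139 and 241 CPM, past 1.5-fold higher, and Itgam, the alpha chain of complement receptor 3, was past 1.5-fold lower. In neutrophil-like cells 2 of 6 were past 1.5-fold higher (C5ar2, a second C5a receptor, at 24.6 and 46.3 CPM, and C1qbp, a mitochondrial protein that binds C1q) and 0 lower, where 19.2% of all genes were as much higher, or 9.34% with TMM scaling, and 6.94% lower. In monocyte-like cells 0 of 7 were higher and 2 lower (Itgax and C1qbp), where 7.68% of all genes were higher and 7.88% lower. The regulator genes sat elsewhere. Cr2, complement receptor 2 of B cells, was at 44.4 and 33.9 CPM in B-like cells, and Cd55, which speeds the decay of convertases, at 359 and 346 CPM there. Clu, which encodes clusterin, and Cfi, factor I, were highest in the epithelial or tumour cluster. Itgb2, the shared beta chain of those integrins, was at 319 and 380 CPM in monocyte-like cells. Among the early classical pathway enzymes C1ra had 14 and 33 UMIs in all and C2 10 and 19, and Hc, the gene of C5, had 12 and 19.

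The genes whose pattern was most like that of each member over 30 profiles (15 classes in both libraries, log2(CPM + 10), 9742 genes) fell into the same groups. These profiles share libraries and depth, so the correlations are descriptions. For C1qa, C1qb and C1qc the closest was Ms4a7, with a Pearson r of 0.93, 0.95 and 0.96, followed by Apoe and Rab3il1, Apoe and Trem2, and Hebp1 and Apoe. Ms4a7, Apoe and Trem2 are macrophage markers used to name the class. C3 was closest to Tlr4 (0.97), Mgst1 and F10, and C5ar1 to Bst1 (0.96), Cd300ld and Tlr4. Cfp was closest to Dab2 (0.98), Cd68 and Ms4a6d, C3ar1 to P2ry6 (0.95), Ccl9 and Klra2, Cfb to Mmp14 (0.92), Idh1 and Prdx1, and C4b to Vcam1 (0.95), Ltbp3 and Ctnnd1. Tlr4, the receptor for bacterial lipopolysaccharide, appears for both C3 and C5ar1, the members highest in neutrophil-like cells.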

How the data were processed

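Each deposited value is a raw count of UMIs for 1 gene in 1 barcode, made with Cell Ranger 6.0.1 per the file headers. The submitters' processing notes also name Seurat and mm10, and the annotation is not given in the sources used here. Entries sharing a symbol were summed. The filter of 200 genes or more, and no more than 10% mitochondrial UMIs, left 5504 and 5693 cells. They were clustered in scanpy 1.11.5 (2000 variable genes, 30 components, Leiden resolution 1, then again within lineages). Clusters were named where the marker score was at least 0.3. That limit, the rule for mixed clusters and 4 added proliferation genes were chosen after seeing the clusters. No doublet caller was run; clusters with at least 50% of barcodes carrying T cell and phagocyte markers were set aside.

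Summed counts of a class in a library, over all its UMIs, gave CPM. Levels have exact Poisson, shares Clopper-Pearson and ratios conditional Poisson 95% intervals. Only the ratio intervals were run on simulated data. Those counts were Poisson draws with no spread between cells, so they do not check the intervals for real cells. UMIs remove PCR copies, but cells are not replicates. Levels needed 20 cells and ratios 50 cells in each library and 50 UMIs in all, except for the added plasmacytoid ratio of Cfp. TMM factors came from edgeR 4.0.16 as an alternative. The marker gate, another alternative, named 2765 cells of Tdg_WT and 2696 of Tdg_KO one by one from their own markers. Named genes are the 9 members, other complement genes with at least 50 UMIs, and the 3 genes most correlated with each member among those with at least 200 UMIs. The members and lists were chosen with earlier results of these data known. Some results on other genes are not reported here.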

Additional observations from a re-analysis of the deposited data

Results flagged for a closer look

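For 3 genes the counting interval of the ratio lay above 1 in one cell class and below 1 in another. The differences between classes were not tested. C1qa had a ratio of 1.59 in macrophage-like cells, 0.577 in monocyte-like cells and 0.724 in cDC2-like cells. The cDC2-like direction is not firm, since the ratio of summed C1q there was 0.802, 1.10 when thinned and 1.998 at a Leiden resolution of 0.5. C1qc had a ratio of 1.56 in macrophage-like and 0.322 in monocyte-like cells, the latter from 78 and 14 UMIs. The monocyte-like direction of C1q is not firm either. The ratio of summed C1q there was 0.584 in the main clustering and close to 1 at a Leiden resolution of 0.5. A single barcode held much of the Tdg_KO count, though the ratio stayed below 1 without the top barcode of each library. Cfp had a ratio of 1.22 in cDC2-like and 0.766 in monocyte-like cells, the latter with an interval that reached 0.997.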

How the results depend on the processing

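Over the alternatives run, the Cfb ratio in macrophage-like cells stayed between 2.25 and 2.73. With every cell weighted equally the macrophage-like ratios were 1.502 for C1qa, 1.35 for C1qb, 1.41 for C1qc and 1.42 for summed C1q, and the neutrophil-like ratios 1.246 for C3 and 1.11 for C5ar1. With TMM scaling they were 1.43, 1.32, 1.40 and 1.38, and 0.748 and 0.727. With both clusters of a class weighted equally, an alternative chosen after seeing the data, they were 1.19, 1.13, 1.14 and 1.16, and 0.720 for C3. Thinned to 1000 UMIs, C1qc was at 1.46 and C3ar1 at 3.33 in macrophage-like cells, C5ar1 at 1.04 in neutrophil-like cells, and C5ar1 in macrophage-like cells reversed from 1.60 to 0.832. Without barcodes of another lineage C3 was at 1.24 and C5ar1 at 1.08 in neutrophil-like cells. The causes were not tested. With no filter on low counts, 51.9% (macrophage-like), 56.1% (neutrophil-like), 48.6% (monocyte-like) and 43.8% (cDC2-like) of all genes passed 1.5-fold in either direction, and with a filter of 20 UMIs 23.6% (monocyte-like) and 20.2% (cDC2-like), since genes with few UMIs enter. No paired analysis was possible because each group has 1 library. Depth limits C4b in every class and C3ar1 in most.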
